A study of Mus musculus with 80 samples.

Results

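Cold mechanical dissociation of the mouse brain was set beside warm enzymatic dissociation by RNA-Seq of the Input fraction. Input is RNA taken before any pull-down, which the study drew from the supernatant of the lysed preparation after centrifugation. The comparison took the 4 Dounce-Input and the 4 Cell(-)Inhib-Input libraries by their sample names, 8 of the 80 libraries of the series, and all 16000 genes listed for them. For Dounce-Input, brains were broken up by hand in a glass homogenizer with loose and tight pestles, kept in the cold throughout, and cleared of debris on a Percoll gradient. For Cell(-)Inhib-Input, brains were digested with a papain-based enzyme kit at warm incubation temperature, cleared with a debris removal solution, and handled without transcription and translation inhibitors. All mice were Cx3cr1(Jung)-cre/Ert2+;NuTRAP+, carrying a tamoxifen-inducible Cre driven by the Cx3cr1 promoter and a Cre-dependent tag on ribosomes and nuclei, and all were given tamoxifen at about 3 months of age. The tag plays no part in an Input library, which holds RNA of every cell type that survives the preparation. Each group held 2 males and 2 females, no mouse was shared between the groups, and a Dounce-Input library took a whole brain where a Cell(-)Inhib-Input library took a hemisphere. The Dounce libraries joined the series later, and the study recorded much lower RNA integrity and RNA yield in them than in the digests. It also reported coverage leaning more to the tail end of transcripts in Dounce-Input and Tissue-Input than in the digests. Whether the Dounce libraries were made or sequenced together with the others is not given. Preparation, mice, and any such batch difference therefore cannot be told apart.

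Brain cells read disturbance through a small set of fast genes. Signals that reach the nucleus phosphorylate factors already bound to promoters, immediate-early factors such as Fos and Jun are transcribed within minutes, and feedback regulators and chemokines follow. Because papain needs warmth to work, cells in a digest stay metabolically active for the whole incubation. Dissociation also selects cells, since neurons lose axons and dendrites, vessels can be cut free by proteases, and nuclei can outlast the cytoplasm around them.

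Total counts were 5107604 to 9751826 in Dounce-Input and 8875555 to 10189396 in Cell(-)Inhib-Input. Dounce-Input replicates 3 and 4, both female, were the shallower libraries with 5107604 and 5868736 counts, so sex and depth coincide within that group. Defining markers of brain cell types were present in both preparations. Levels are in CPM, a gene's share of its library's effective total. The summed CPM of 6 neuronal markers ranged from 3290 to 3569 in Dounce-Input and from 365 to 696 in Cell(-)Inhib-Input, against 7292 to 7548 in Tissue-Input. For 8 microglial markers the ranges were 1846 to 2874 and 5603 to 9254, against 311 to 342 in Tissue-Input. For 6 endothelial markers they were 33 to 37 and 1266 to 1616. These shifts in cell type markers run alongside every difference given here, and their part in each was not tested. In bulk libraries, fewer cells of a type and less RNA per cell cannot be told apart.

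A gene was called when the edgeR quasi-likelihood test gave a Benjamini-Hochberg false discovery rate (FDR) under 0.1 and the fold change was above 2. Of the 15753 genes tested, 4533 were called higher in Dounce-Input (28.8%) and 4419 lower (28.1%), so that 56.8% were called in 1 direction or the other. The median log2 fold change, Dounce-Input minus Cell(-)Inhib-Input, was -0.06 over all genes tested, with quartiles of -1.14 and 1.25. Among called genes, 1224 were more than 8-fold higher and 679 more than 8-fold lower. In 5625 genes all 4 Dounce-Input libraries lay above all 4 Cell(-)Inhib-Input libraries (35.7%), and in 5835 all 4 lay below (37.0%). A list of genes is read against these shares throughout. The plot of fold change against level shows neuronal channel genes and nuclear long noncoding RNAs on one side, and immediate-early, endothelial, and choroid plexus genes on the other.

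**Figure D1:**
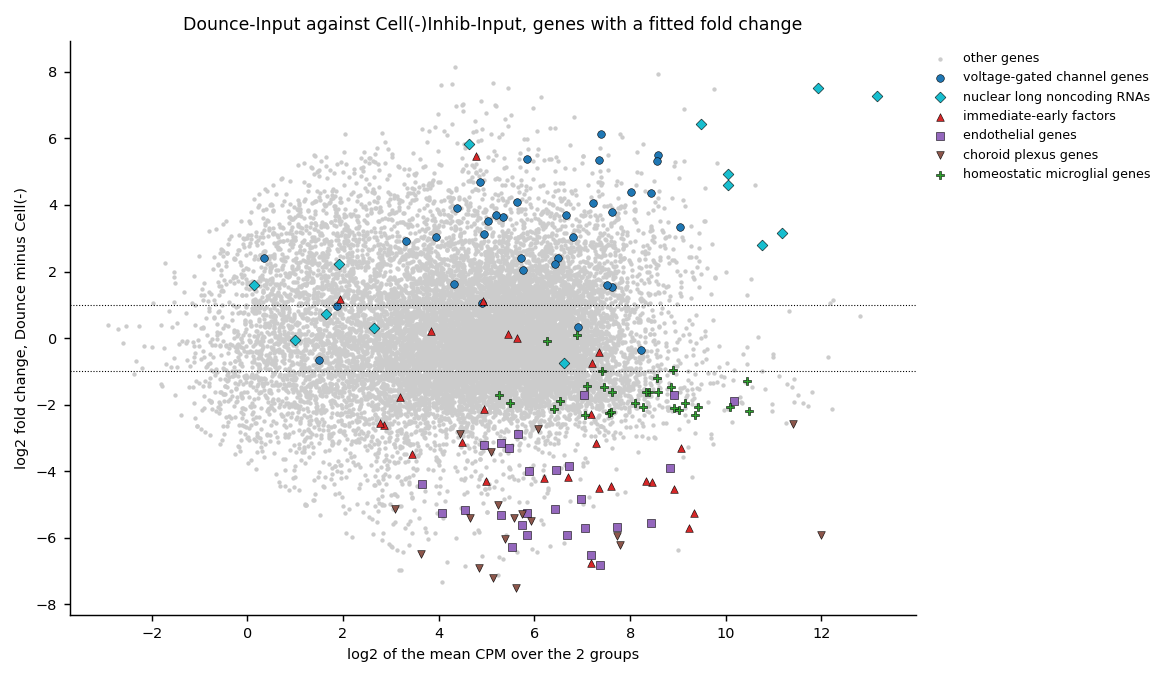
Each grey point is 1 of the 15355 genes with a fitted fold change, by the log2 of its mean CPM over both groups (x axis) and its log2 fold change, Dounce-Input minus Cell(-)Inhib-Input (y axis), with dotted lines at the 2-fold limits. Coloured symbols mark 6 gene lists; the endothelial and choroid plexus genes all lie below the lower line, and 30 of 34 voltage-gated channel genes were called above the upper line.

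Among the lists of response genes, immediate-early factors had the lowest median. Of 28 tested, 20 were called lower in Dounce-Input and 3 higher, with a median log2 fold change of -3.14. Fos, a subunit of the AP-1 transcription factor, was at 29.9, 28.3, 16.7, and 13.3 CPM in the 4 Dounce-Input libraries and at 848, 1071, 1079, and 1732 CPM in the 4 Cell(-)Inhib-Input libraries. The groups did not overlap, and every digest library lay far above every Dounce library. The log2 fold change was -5.72 ± 0.30 (SE, n = 4 per group, edgeR adjusted p = 3.2e-12). In Tissue-Input, homogenized directly in lysis buffer, Fos averaged 34.8 CPM, and in Cell(+)Inhib-Input, digested with inhibitors present, 15.8 CPM.

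Jun, the usual partner of Fos, was at 32.9, 36.7, 30.9, and 30.1 CPM in Dounce-Input and at 937, 1337, 1236, and 1518 CPM in Cell(-)Inhib-Input (log2 fold change -5.26 ± 0.16). Atf3, a stress-induced member of the same family of factors, was at 4.86, 1.64, 0.767, and 2.73 CPM against 189, 238, 302, and 423 CPM (-6.75 ± 0.35). Atf3 had the largest fall of the list and was near its Tissue-Input mean of 2.34 CPM in the Dounce libraries. Egr1, a zinc finger factor, was at 39.8, 46.7, 35.9, and 38.6 CPM against 735, 822, 799, and 1349 CPM (-4.52 ± 0.21). The Egr1 mean of 237 CPM in Tissue-Input lay above every Dounce library and below every digest library, as did that of Fos. Fosb (-4.52), Junb (-4.32), Btg2 (-4.28), Klf4 (-4.22), and Ier2 (-4.18) were called lower as well, with no overlap between groups in any of the 5.

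Not every immediate-early gene followed. Npas4, a factor that neurons induce on calcium entry, went the other way, at 60.2, 62.3, 47.6, and 44.8 CPM in Dounce-Input and 0.105, 1.17, 1.68, and 1.81 CPM in Cell(-)Inhib-Input (log2 fold change 5.48 ± 0.37, edgeR adjusted p = 8.5e-11). All Dounce libraries also lay above the Tissue-Input mean of 13.4 CPM. Egr4 (1.18) and Nr4a2 (1.12), both expressed in neurons, were the others called higher. Both were close to the 2-fold limit, with Egr4 at 0.98 and 0.96 without Dounce-Input replicates 1 and 2, and Nr4a2 at 0.94 and 0.999 without Cell(-)Inhib-Input replicates 1 and 2. The 5 members that were not called were Nr4a1 (-0.42) and, named after their values were seen, Btg1 (-0.75), Srf (-0.01), Fosl2 (0.12), and Klf10 (0.21).

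**Figure D2:**
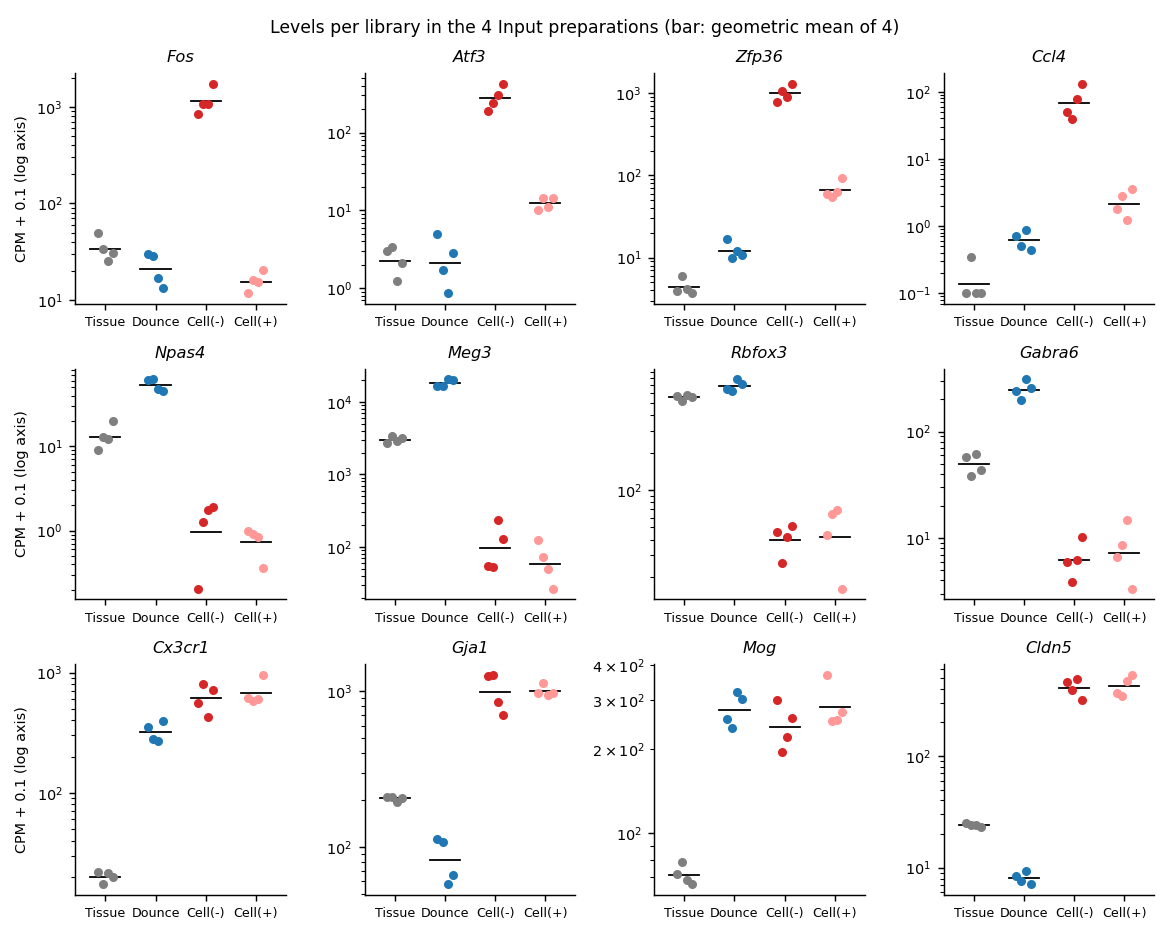
Level of 12 genes in each library as CPM plus 0.1 on a log axis (y axis), for the 4 libraries of Tissue-Input, Dounce-Input, Cell(-)Inhib-Input, and Cell(+)Inhib-Input (x axis), with a bar at the geometric mean. Fos, Atf3, Zfp36, and Ccl4 are highest in Cell(-)Inhib-Input, Npas4, Meg3, and Gabra6 are highest in Dounce-Input, and the Mog points of the 3 cell preparations overlap.

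Feedback regulators, which shut such responses down, were lower in Dounce-Input in 21 of 28 and higher in 1 (median -1.86). Zfp36, which binds and destabilizes cytokine mRNA, was at 16.5, 9.83, 11.9, and 10.8 CPM in Dounce-Input and at 790, 1068, 892, and 1305 CPM in Cell(-)Inhib-Input. The groups were far apart, and the log2 fold change of -6.36 ± 0.24 was the largest of this list (edgeR adjusted p = 4.3e-14). The Zfp36 mean of 4.33 CPM in Tissue-Input lay below every Dounce library. The summed level of the whole list averaged 1031 CPM in Dounce-Input, 5793 CPM in Cell(-)Inhib-Input, and 1035 CPM in Tissue-Input. Socs3, an inhibitor of cytokine receptor signalling, was called lower (-4.55 ± 0.29), as were the phosphatase Dusp1 (-3.42 ± 0.19) and Rgs1, a brake on G protein signalling (-3.93 ± 0.46). The regulators of NF-kappaB Nfkbia (-2.35) and Nfkbiz (-1.53) fell less than these, and Gadd45b (-1.10) was close to the limit (-0.91 without Cell(-)Inhib-Input replicate 4 and -0.99 without Dounce-Input replicate 2). Dusp5, another phosphatase, was the member called higher, at 9.61, 6.04, 5.94, and 10.6 CPM against 2.83, 2.73, 4.92, and 4.20 CPM (1.13 ± 0.33, and 0.98 without Dounce-Input replicate 4).

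Inflammatory cytokines and chemokines were lower in 18 of 24 and higher in none (median -2.58), where 28.8% of all genes were called higher. Ccl4, a chemokine released by microglia, was at 0.620, 0.410, 0.767, and 0.342 CPM in Dounce-Input and at 50.1, 38.5, 78.5, and 132 CPM in Cell(-)Inhib-Input (log2 fold change -7.12 ± 0.49). Ccl3, from the same gene cluster, was at 0.207, 1.64, 0, and 1.02 CPM against 49.2, 46.0, 75.9, and 133 CPM (-6.59 ± 0.51). Both were under 2 CPM in every Dounce library. Tnf (-6.97 ± 0.62), Ccl2 (-6.43 ± 0.69), and Cxcl10 (-3.99 ± 0.68) were called lower, and Cxcl2, with no count in any Dounce library, was at least 11-fold lower. Interleukin-1 alpha was further down than interleukin-1 beta in these fits, with Il1a at -3.71 ± 0.37 and Il1b at -2.20 ± 0.37, and the difference between them was not tested. In Dounce-Input Il1b was at 8.99, 10.1, 4.99, and 4.44 CPM, against a Tissue-Input mean of 0.181 CPM. The microglial markers summed above were also lower in Dounce-Input, and neutrophil markers, given below, were higher.

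The promoters of these gene groups were searched for the letters that 3 of the signal-bound factors recognize. Promoters were taken from RefSeq on GRCm38.p6, 250 bases before to 50 bases after each start, and matched 23 of the 28 immediate-early genes, 24 feedback regulators, and 15 cytokine genes. The cAMP response element (CRE) was TGACGTCA, the AP-1 site was TGANTCA, and the serum response element core was the CArG box, each searched on both strands. To show what a match looks like, 1 promoter with each motif is printed 5′ to 3′ with the motif in capitals, from genes called lower in Dounce-Input, in the order CRE, CArG box, and AP-1.
Btg2, chr1:134079106-134079405, minus strand: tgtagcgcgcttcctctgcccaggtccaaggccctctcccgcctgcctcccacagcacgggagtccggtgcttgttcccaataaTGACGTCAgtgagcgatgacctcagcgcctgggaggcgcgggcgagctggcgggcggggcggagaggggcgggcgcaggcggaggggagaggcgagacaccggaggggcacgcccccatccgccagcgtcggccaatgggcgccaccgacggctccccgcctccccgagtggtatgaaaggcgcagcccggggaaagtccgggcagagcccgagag
Zfp36, chr7:28379179-28379478, minus strand: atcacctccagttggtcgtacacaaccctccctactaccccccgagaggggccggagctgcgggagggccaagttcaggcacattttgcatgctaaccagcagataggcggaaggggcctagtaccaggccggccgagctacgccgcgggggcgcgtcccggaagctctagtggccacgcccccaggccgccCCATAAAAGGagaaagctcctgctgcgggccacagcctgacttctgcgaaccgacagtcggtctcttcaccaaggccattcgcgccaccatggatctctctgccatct
Cxcl10, chr5:92348840-92349139, minus strand: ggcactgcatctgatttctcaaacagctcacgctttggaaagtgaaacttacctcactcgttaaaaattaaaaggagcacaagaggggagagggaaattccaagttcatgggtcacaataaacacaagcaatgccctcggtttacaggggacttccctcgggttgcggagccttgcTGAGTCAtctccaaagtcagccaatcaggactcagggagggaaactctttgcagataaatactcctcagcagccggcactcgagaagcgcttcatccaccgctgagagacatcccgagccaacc
The CRE was found in 2 of 23 immediate-early genes, Btg2 and Maff, and in 4 of 24 feedback regulators, against 3.32% of the 11502 tested genes with a promoter in that table. A gene counted once if any of its promoters held the letters. The CArG box was found in 2 immediate-early genes, Egr2 and Srf, and in 2 feedback regulators, Dusp5 and Zfp36, against 1.68% of the tested genes. The AP-1 letters were found in 6 of 15 cytokine genes, in 3 feedback regulators, and in 1 immediate-early gene, Csrnp1, against 6.65% of the tested genes. Over all 32851 promoters the shares were 1.79% for the CRE, 1.63% for the CArG box, and 7.81% for AP-1. Zfp36 and Dusp5 both carried a CArG box in this window, and the former was called lower and the latter higher. Genes were picked for this search by their list, and a match is a description of letters only.

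Classical stress genes differed too, but less uniformly. Heat shock proteins were lower in Dounce-Input in 14 of 24 and higher in 2 (median -1.16). Their summed level averaged 2538 CPM in Dounce-Input, 6136 CPM in Cell(-)Inhib-Input, and 9079 CPM in Tissue-Input, so both preparations lay below tissue. Hspb1, a small heat shock protein, was at 1.55, 1.84, 1.34, and 0.342 CPM in Dounce-Input and at 79.1, 83.1, 108, and 62.9 CPM in Cell(-)Inhib-Input (log2 fold change -5.93 ± 0.25, edgeR adjusted p = 1.5e-13). With inhibitors in the digest Hspb1 stayed at 71.6 CPM, while Hspa1a went from a mean of 65.8 CPM without them to 13.3 CPM. Hspa1a (-3.67 ± 0.26) and Hspa1b (-4.17 ± 0.40), inducible Hsp70 genes that are near-identical copies and can share reads, were both called lower. Dnajb5 (2.49 ± 0.09) and Hsf2 (1.50 ± 0.13) were called higher.

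Targets of the integrated stress response, which slows translation under amino acid or protein folding stress, were lower in 11 of 18 and higher in 1 (median -1.30). Their summed level averaged 829 CPM in Dounce-Input, 2077 CPM in Cell(-)Inhib-Input, and 1057 CPM in Tissue-Input. Slc7a5, an amino acid transporter, was called lower (-2.73 ± 0.14), as were Phgdh (-2.35 ± 0.12) and Nupr1 (-2.28 ± 0.25). Asns, which makes asparagine, was the member called higher, at 17.2, 17.1, 17.8, and 16.9 CPM against 3.25, 6.33, 7.05, and 7.73 CPM, and both preparations were far below its Tissue-Input mean of 104 CPM. Ddit3, a mediator of cell death under this stress, was not called (-0.51 ± 0.11). Endoplasmic reticulum chaperones were lower in 4 of 18, namely Dnajc3 (-1.46), Sdf2l1 (-1.40), Herpud1 (-1.33), and Hspa5 (-1.07, named after its value was seen), and higher in none (median -0.78). Of all genes tested, 28.1% were called lower, so that count of 4 was not above the general share.

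Antioxidant genes were lower in 14 of 21 and higher in none (median -1.69), led by Nqo1 (-3.31 ± 0.33), Hmox1 (-2.66 ± 0.28), and Prdx1 (-2.60 ± 0.12). All 3 metallothioneins, which bind zinc, were lower, with Mt1 at 108, 77.4, 47.0, and 60.8 CPM against 455, 425, 398, and 337 CPM (-2.45 ± 0.18). Summed antioxidant genes averaged 958 CPM in Dounce-Input, 2691 CPM in Cell(-)Inhib-Input, and 2443 CPM in Tissue-Input. For summed metallothioneins the means were 243, 1185, and 885 CPM in the same order. In both lists Dounce-Input lay further below tissue than the digest lay above it. The p53 targets were split, with 4 of 15 higher, 6 lower, and a median of -0.02, where 28.8% of all genes were called higher and 28.1% lower. Btg2, given above with the immediate-early genes, is also on the p53 list. Cdkn1a, a cell cycle inhibitor, was at 17, 14.3, 10.9, and 11.8 CPM in Dounce-Input and 116, 110, 90.7, and 106 CPM in Cell(-)Inhib-Input (-2.94 ± 0.15), whereas Mdm2 (1.42), Tnfrsf10b (1.62), and Zmat3 (1.64) were called higher. Glucocorticoid and clock genes were split as well, with 4 of 16 higher and 6 lower (median -0.45). The clock genes Per2 (3.05 ± 0.20), Per3 (2.71 ± 0.19), and Nr1d2 (1.51 ± 0.10) were higher, and Dbp (-2.20 ± 0.14), Tsc22d3 (-1.58 ± 0.14), and Fkbp5 (-1.49 ± 0.19) were lower. Cold-inducible Rbm3 (0.64 ± 0.17) and Cirbp (-0.30 ± 0.14) were not called.

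Neuronal transcripts were far better represented after cold homogenization. Of 99 neuronal markers of the study, 78 were called higher in Dounce-Input and 3 lower (median 2.50). Rbfox3, the nuclear antigen NeuN of mature neurons, was at 653, 627, 781, and 711 CPM in Dounce-Input and 46.0, 25.7, 41.5, and 51.2 CPM in Cell(-)Inhib-Input (log2 fold change 4.08 ± 0.31, edgeR adjusted p = 5.7e-10). Its Tissue-Input mean was 558 CPM. Snap25, a membrane fusion protein of nerve terminals, was at 1001, 1018, 1091, and 1062 CPM against 224, 132, 162, and 261 CPM (2.42 ± 0.26), and its Tissue-Input mean was 3080 CPM. Every Dounce library lay above the tissue mean for Rbfox3 and below it for Snap25. Syt1 (3.50 ± 0.27), a calcium sensor of vesicle release, and Gpr22 (5.42 ± 0.35), a neuronal receptor, were called higher. The 3 markers called lower, Erbb4 (-1.73), Ndnf (-1.20), and Sp8 (-1.08), had low levels, with no library above 22.4 CPM. Without Cell(-)Inhib-Input replicate 4 or Dounce-Input replicate 3 or 4, Sp8 was no longer called (-0.69, -0.97, and -0.995), and with only the 2 deeper Dounce libraries Ndnf was at -0.75.

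By neuron class, the share called higher differed. Cerebellar granule cell genes were higher in 19 of 26 and lower in none (median 2.39), and striatal projection neuron genes were higher in 15 of 19 and lower in 1 (median 1.76). Gabra6, a GABA receptor subunit of granule cells, was at 240, 196, 310, and 254 CPM in Dounce-Input and 5.87, 3.80, 6.15, and 10.0 CPM in Cell(-)Inhib-Input (5.26 ± 0.33), with 49.9 CPM in Tissue-Input. Fat2 (4.83 ± 0.35) and Cdh15 (4.82 ± 0.38), which also mark granule cells, were close to it. Cortical and hippocampal excitatory genes were higher in 15 of 25 and lower in 1 (median 1.45), with Neurod1 (4.03), Nptx1 (3.91), Neurod2 (3.50), and the vesicular glutamate transporter Slc17a7 (3.03 ± 0.34) higher and Prox1 (-1.21) lower, though not past the limit without Cell(-)Inhib-Input replicate 4 (-0.96) or Dounce-Input replicate 3 (-0.97). Camk2a, a kinase of dendrites, was higher by less (2.14 ± 0.32). Inhibitory neuron genes were higher in 14 of 24 and lower in 3 (median 1.75). The GABA-making enzymes were called higher, Gad2 (2.75 ± 0.19) by more than Gad1 (1.94 ± 0.22), as were the peptide genes Tac1 (4.68) and Sst (3.99) and the cannabinoid receptor Cnr1 (4.04). Dlx2 (-2.06), a transcription factor of developing interneurons, was among those lower.

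Among striatal genes Rgs9 (4.67 ± 0.21) was higher, and Drd2, a dopamine receptor, was higher from a low level (2.27 ± 0.57). Ppp1r1b, which encodes the dopamine-regulated phosphoprotein DARPP-32, ran against the rest of the list, at 49.9, 58.9, 36.4, and 41.3 CPM in Dounce-Input and 257, 328, 353, and 248 CPM in Cell(-)Inhib-Input (-2.66 ± 0.25). Purkinje cell genes were higher in 6 of 19 and lower in 1, where 28.8% of all genes were called higher and 28.1% lower. The count higher was thus close to the general share. Their median of -0.23 lay near that of all genes and turned to 0.36 without Cell(-)Inhib-Input replicate 3. Slc1a6 (4.14 ± 0.33), a glutamate transporter of Purkinje dendrites, and Mdga1 (2.02 ± 0.17) were among those higher, and Rora (-1.49 ± 0.31) lower. Pcp2, which is nearly specific to Purkinje cells, was at 9.71, 7.48, 6.90, and 8.03 CPM against 7.86, 2.73, 28.8, and 8.49 CPM and was not called (-0.55 ± 0.52), and its Tissue-Input mean was 78.5 CPM. Diencephalic and midbrain genes were higher in 12 of 27 and lower in 5 (median 1.07), but in 4 each of the 11 that had at least 10 counts in every library. The dopamine transporter Slc6a3 (4.41 ± 0.73) and the hormone gene Trh (3.99 ± 0.36) were higher, and Ddc (-2.40), Synpo2 (-2.31), and Lef1 (-1.70) were lower. The study describes Lef1 as a transcription factor of endothelium.

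Among the neuronal lists, channel genes had the highest median. Voltage-gated channel genes were higher in Dounce-Input in 30 of 34 and lower in none (median 3.23). Scn1a, a sodium channel, was at 323, 362, 295, and 345 CPM in Dounce-Input and 4.82, 2.92, 2.01, and 8.97 CPM in Cell(-)Inhib-Input (log2 fold change 6.12 ± 0.30, edgeR adjusted p = 1.1e-12), with 134 CPM in Tissue-Input. Scn2a1 (5.51 ± 0.27) and Scn3a (5.39 ± 0.25), its paralogs, were next in the list. Presynaptic genes were higher in 23 of 31 (median 2.16) and postsynaptic and dendritic genes in 22 of 32 (median 1.86), with none lower in either list. The glutamate receptor genes Gria3 (5.84 ± 0.30) and Gria2 (5.25 ± 0.19) were near the top of the postsynaptic list, and Nrxn3 (4.79 ± 0.21), Sv2c (4.59 ± 0.30), and Syt4 (4.42 ± 0.23) led the presynaptic list. Genes regulated by neuronal activity, a list that shares Npas4, Fosb, and other members with the immediate-early list, were higher in 15 of 24 and lower in 4 (median 1.70). Bdnf, a growth factor, was at 41.8, 35.5, 63.1, and 76.9 CPM against 3.04, 2.05, 1.68, and 2.96 CPM (4.46 ± 0.31), and Nptx2, a pentraxin of synapses, at 42.5, 49.3, 44.9, and 46.8 CPM against 1.89, 2.83, 3.25, and 4.67 CPM (3.85 ± 0.25). Egr3 (-2.60) and Nr4a3 (-2.56) were lower, and Arc was not called (0.79 ± 0.23).

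Microglial transcripts were lower than in the digest, with levels between those of tissue and digest. Of 282 microglial markers of the study, 217 were lower in Dounce-Input and 3 higher (median -1.55), and of 29 homeostatic microglial genes 25 were lower and none higher (median -1.90). The marker list of the study also holds response genes given above, among them Atf3 and Tnf, so the lists are not separate. Csf1r, the receptor microglia need to survive, was at 600, 555, 293, and 597 CPM in Dounce-Input and 2258, 2800, 1483, and 2800 CPM in Cell(-)Inhib-Input (log2 fold change -2.19 ± 0.23, edgeR adjusted p = 3.8e-08), with 88.6 CPM in Tissue-Input. The complement gene C1qb (-2.30 ± 0.15), the adaptor Tyrobp (-2.30 ± 0.15), and the lipid receptor Trem2 (-2.25 ± 0.14) had the largest falls of the homeostatic list. C1qa (-2.08), Tmem119 (-1.61), and P2ry12 (-1.19) were called, and Cx3cr1, the fractalkine receptor, was not, at 351, 281, 270, and 398 CPM against 562, 805, 426, and 713 CPM (-0.95 ± 0.19). The limit lies close to both P2ry12, at -0.98 without Cell(-)Inhib-Input replicate 2, and Cx3cr1, at -1.09 without Cell(-)Inhib-Input replicate 3 and -1.06 without Dounce-Input replicate 4. The 3 others not called, named after their values were seen, were Sall1 (-0.98, but -1.15 without Cell(-)Inhib-Input replicate 3 and -1.05 without Dounce-Input replicate 1), Ptprc (-0.08), and Mef2c (0.10). The 3 microglial markers called higher were Aim2 (1.83 ± 0.19), Gm14023 (1.92 ± 0.34), which overlaps Il1a on the opposite strand, and the monocyte receptor Ccr2 (1.02 ± 0.34). Ccr2 was not called without Cell(-)Inhib-Input replicate 3 (0.97) or Dounce-Input replicate 1 (0.70) or 3 (0.96).

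Lysosomal and phagocytic genes were lower in 26 of 30 (median -1.66), among them Cst7 (-2.60) and Itgax (-2.50). The single member called higher was Lpl, lipoprotein lipase, at 492, 399, 834, and 1084 CPM in Dounce-Input and 27.1, 14.8, 21.8, and 42.5 CPM in Cell(-)Inhib-Input (4.72 ± 0.37). Tissue-Input held 28.8 CPM of Lpl, so the Dounce libraries stood apart from all other preparations. Border-associated macrophage genes were lower in 11 of 13 (median -1.69), with Ccl24 (-2.79 ± 0.49), Folr2 (-2.48 ± 0.56), Dab2 (-2.15 ± 0.17), and the mannose receptor Mrc1 (-1.08 ± 0.29) among them. Mrc1 was not called without Cell(-)Inhib-Input replicate 4 (-0.72) or Dounce-Input replicate 3 (-0.88). Interferon-stimulated genes were lower in 16 of 24 and higher in 2 (median -1.83), with Oas1a (-3.82 ± 0.64), Gbp2 (-3.68 ± 0.24), and Gbp3 (-3.18 ± 0.36) lower and Stat2 (2.24 ± 0.16) and Ifit1 (1.70 ± 0.27) higher.

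Blood cell genes were the only non-neuronal cell type list with more members higher than lower in Dounce-Input, at 14 of 22 higher and none lower (median 1.19). With at least 10 counts required in every library, only 3 members could be tested and none was called. S100a8, an abundant neutrophil protein, was at 119, 51.8, 336, and 80.5 CPM in Dounce-Input and 15.3, 4.00, 6.60, and 1.91 CPM in Cell(-)Inhib-Input (4.40 ± 0.64). Dounce-Input replicate 3 was the highest for S100a8, for Camp (143 CPM, 5.21 ± 0.90), and for Ltf (297 CPM, 3.88 ± 0.73), all from neutrophil granules. The sum of 3 neutrophil markers was 195 to 1284 CPM in Dounce-Input, 15.7 to 76.4 CPM in Cell(-)Inhib-Input, and at most 3.01 CPM in Tissue-Input. The hemoglobin gene Hba-a1, a near-identical copy of Hba-a2, was not called (0.65 ± 0.28).

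Astrocyte transcripts were lower in Dounce-Input. Of 138 astrocytic markers of the study, 99 were lower and 8 higher (median -1.73), and of 31 astrocyte genes 29 were lower and none higher (median -2.06). Gja1, the gap junction protein connexin 43, was at 113, 107, 57.3, and 66.1 CPM in Dounce-Input and 1254, 1273, 851, and 698 CPM in Cell(-)Inhib-Input (log2 fold change -3.56 ± 0.22, edgeR adjusted p = 2.5e-11), with 205 CPM in Tissue-Input. Slc1a2, the main glutamate transporter, was lower by less, at 1869, 1728, 686, and 1255 CPM against 3454, 3940, 2222, and 2614 CPM (-1.14 ± 0.23). Dounce-Input replicate 3 was the lowest library for both genes, and Slc1a2 was not called without it (-0.92) or without Cell(-)Inhib-Input replicate 2 (-0.98). Slco1c1 (-4.68 ± 0.14), a thyroid hormone transporter shared with endothelium, Id3 (-3.92 ± 0.16), Aqp4 (-2.06 ± 0.26), Aldoc (-1.97 ± 0.24), and Gfap (-1.05 ± 0.34) were lower, the last not without Cell(-)Inhib-Input replicate 4 (-0.52) or Dounce-Input replicate 3 (-0.80). Among astrocytic markers, Pax6 (3.15 ± 0.19), Appl2 (2.18 ± 0.10), and Trim9 (1.79 ± 0.16) were called higher, and Pax6 is also a gene of cerebellar granule neurons.

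The oligodendrocyte lineage was divided. Of 194 oligodendrocytic markers of the study, 73 were lower and 22 higher (median -0.55), and of 29 mature oligodendrocyte and myelin genes 16 were lower and 1 higher (median -1.34). Cnp, a myelin enzyme, was at 201, 171, 147, and 159 CPM in Dounce-Input and 1972, 1288, 1332, and 1545 CPM in Cell(-)Inhib-Input (-3.18 ± 0.16). Mog, a surface protein of the same cells, was at 256, 237, 320, and 302 CPM against 299, 194, 222, and 258 CPM and was not called (0.20 ± 0.14). Opalin (0.01 ± 0.18) was not called either. Mbp, whose mRNA is carried into myelin sheaths, was lower (-2.12 ± 0.35) and varied widely in Cell(-)Inhib-Input, at 8324, 2887, 15140, and 4791 CPM. Enpp2 (-2.57 ± 0.25), which choroid plexus also expresses strongly, and Cryab (-2.85 ± 0.15) were lower, and Gjc3, a connexin, was higher (1.20 ± 0.11). Ccp110 (2.36 ± 0.15), Tmod1 (2.31 ± 0.16), and Ank3 (2.18 ± 0.17) had the largest rises of the marker list, Fam57a (-3.08 ± 0.40) was among the largest falls, and Gstm2, with at most 2 counts in a Dounce library, was at least 46.4-fold lower.

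Progenitor genes of that lineage were lower in 9 of 21 and higher in 3 (median -0.46), where 28.1% of all genes were called lower and 28.8% higher. Pdgfra (-0.28 ± 0.20) and Cspg4 (-0.43 ± 0.27), the receptor and proteoglycan that define progenitors, were not called. Olig1 (-1.98 ± 0.12) was lower, as were Tmem100 (-2.01 ± 0.24) and Xylt1 (-1.89 ± 0.41), and Vcan (1.46 ± 0.22), Lhfpl3 (1.13 ± 0.21), and C1ql1 (1.08 ± 0.28, and 0.98 without Cell(-)Inhib-Input replicate 3) were higher.

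Genes of endothelium, ependyma, and choroid plexus had the lowest medians of all lists, and those of mural cells and meninges were lower by less. Of 235 endothelial markers of the study, 190 were lower and 8 higher (median -2.71), and all 27 endothelial genes were lower (median -5.15). Cldn5, the tight junction protein of the blood-brain barrier, was at 8.37, 7.48, 9.20, and 7 CPM in Dounce-Input and 456, 388, 490, and 317 CPM in Cell(-)Inhib-Input (log2 fold change -5.69 ± 0.18, edgeR adjusted p = 8.2e-15). Its Tissue-Input mean of 24.0 CPM lay above every Dounce library. Flt1, a receptor for vascular endothelial growth factor, was at 2.89, 3.69, 2.30, and 2.39 CPM against 370, 313, 340, and 299 CPM (-6.82 ± 0.21). Abcb1a (-6.51 ± 0.33), an efflux pump, and Tie1 (-6.28 ± 0.34) were of like size, and Shroom4 was at least 16.2-fold lower. Itga4 (3.40 ± 0.13), Ctla2a (2.91 ± 0.18), and Stap2 (2.43 ± 0.25) led the endothelial markers called higher, and Itga4 is also carried by leukocytes.

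Mural cell genes were lower in 11 of 15 (median -2.13), with Rgs5 (-6.55 ± 0.38), Myl9 (-4.45 ± 0.24), and Pdgfrb (-1.96 ± 0.20) lower and Higd1b at least 15.2-fold lower. Fibroblast and meningeal genes were lower in 15 of 18 (median -2.58), with the matrix genes Mgp (-5.46 ± 0.19), Bgn (-4.37 ± 0.24), and Col1a2 (-3.91 ± 0.17) and the growth factor Igf2 (-4.61 ± 0.23). Choroid plexus genes were lower in all 18 (median -5.45). Ttr, the thyroxine carrier secreted by choroid plexus, was at 133, 156, 138, and 105 CPM in Dounce-Input and 6400, 8568, 10150, and 6797 CPM in Cell(-)Inhib-Input (-5.91 ± 0.37), with 1257 CPM in Tissue-Input. All 16 ependymal and ciliary genes tested were lower (median -4.69, or -4.60 with genes near 0 set at their bound), among them Foxj1, the master factor of motile cilia (-4.76 ± 0.26), Dynlrb2 (at least 45.4-fold), and Sntn (at least 16.2-fold).

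**Figure D3:**
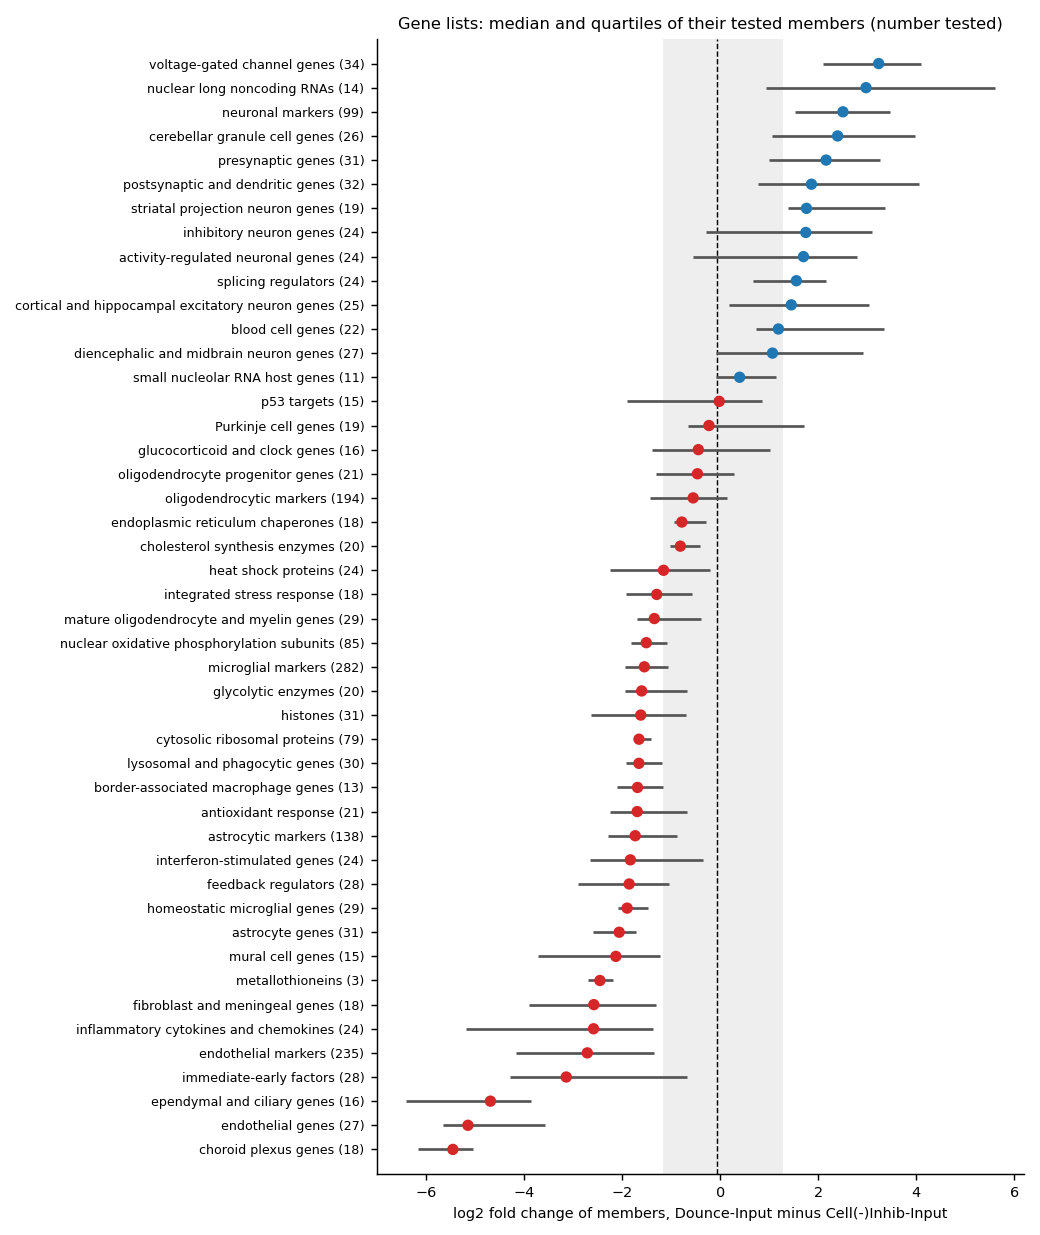
Median (point) and quartiles (line) of the log2 fold change, Dounce-Input minus Cell(-)Inhib-Input (x axis), over the tested members of 46 gene lists (y axis, number tested in brackets). The dashed line and grey band give the median of -0.06 and the quartiles over all genes tested; choroid plexus genes are lowest at -5.45 and voltage-gated channel genes highest at 3.23.

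RNAs known to stay in the nucleus were mostly higher. Nuclear long noncoding RNAs were higher in Dounce-Input in 10 of 14 and lower in none (median 2.97). Meg3, an imprinted RNA of neurons, was at 16350, 16210, 20400, and 20220 CPM in Dounce-Input and 55.3, 53.3, 236, and 130 CPM in Cell(-)Inhib-Input (log2 fold change 7.27 ± 0.53, edgeR adjusted p = 2.7e-10). The Dounce libraries stood far above the Tissue-Input mean of 3019 CPM. Snhg11, a neuronal noncoding RNA, was at 6740, 7321, 8219, and 8734 CPM against 25.3, 18.9, 74.2, and 50.1 CPM (7.53 ± 0.44), and Miat (6.42 ± 0.42) was next. Malat1, a nuclear speckle RNA made by all cell types, was at 4897, 3159, 4480, and 4018 CPM against 378, 329, 903, and 255 CPM (3.15 ± 0.31), with 491 CPM in Tissue-Input. The summed level of the list was 34360 to 43100 CPM in Dounce-Input and 936 to 2250 CPM in Cell(-)Inhib-Input, and Cell(-)Inhib-Input replicate 3 held the most in its group. Among all genes classed as miscellaneous RNA, 426 of 767 were higher (55.5%) and 107 lower (14.0%), with a median of 1.47, against 27.2% and 28.8% of 14850 protein-coding genes.

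Splicing regulators were higher in 17 of 24 and lower in 1 (median 1.55). Srsf11 (3.08 ± 0.11), Clk4 (2.96 ± 0.11), and Tra2a (2.88 ± 0.15) had the largest rises, and Hnrnpa1 (-1.44 ± 0.10) was lower. Clk4, a kinase of splicing factors whose transcripts keep introns in the nucleus, was at 276, 306, 356, and 334 CPM in Dounce-Input and 42.5, 36.8, 46.5, and 37.8 CPM in Cell(-)Inhib-Input, with 37.8 CPM in Tissue-Input. Small nucleolar RNA host genes were mixed, with Snhg7 (2.40), Snhg4 (2.14), and Snhg3 (1.31) higher, the protein-coding hosts Eef2 (-1.97) and Rpsa (-1.73) lower, and 6 of 11 not called (median 0.40). Of all genes tested, 28.8% were called higher and 28.1% lower, so these counts were close to the general shares.

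Short, abundant cytoplasmic mRNAs went the other way. Cytosolic ribosomal protein genes were lower in 77 of 79 and higher in none (median -1.66), and the pair not called, named after their values were seen, were Rps27 (-0.93, and -1.01 without Dounce-Input replicate 1) and Rps15a (-0.24). Rplp0, a protein of the ribosomal stalk, was at 149, 109, 98.8, and 102 CPM in Dounce-Input and 562, 575, 573, and 639 CPM in Cell(-)Inhib-Input (-2.35 ± 0.12), with 260 CPM in Tissue-Input. Rpl28 (-2.24 ± 0.12) and Rps9 (-2.23 ± 0.14) were next. Nuclear-encoded subunits of oxidative phosphorylation were lower in 67 of 85 and higher in 1, Ndufaf4 (1.01 ± 0.14), with a median of -1.51. Ndufaf4 sat at the limit and was not called without Dounce-Input replicate 2 (0.97) or 4 (0.94) or Cell(-)Inhib-Input replicate 1 (0.97) or 4 (0.96). The largest falls in that list were of tissue-specific forms at low levels, Cox8b (-6.07 ± 0.58), Ndufa4l2 (-3.83 ± 0.37), and Cox6b2 (-3.06 ± 0.32).

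Fold change followed transcript length across genes. In 5 classes of about equal size, the median log2 fold change was -0.84 in the shortest class, then -0.30, -0.08, and 0.15, and 0.50 in the longest. The share called higher was 17.9% in the shortest class and 37.5% in the longest, and the share called lower was 45.5% and 17.9%. Across 14984 genes Spearman's rho with transcript length was 0.231, and across 15753 genes rho with genomic span was 0.162, both as descriptions since genes are not replicates. Taken relative to the median of each member's own length class, the medians were -2.70 for immediate-early factors, -1.90 for cytokines, 2.91 for channel genes, and -0.86 for ribosomal protein genes. Of the 46 lists, 2 had a median of the other sign on this scale, Purkinje cell genes (0.52) and p53 targets (0.06). The shares of length, of RNA integrity, and of uneven coverage along transcripts in a gene's difference were not tested.

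**Figure D4:**
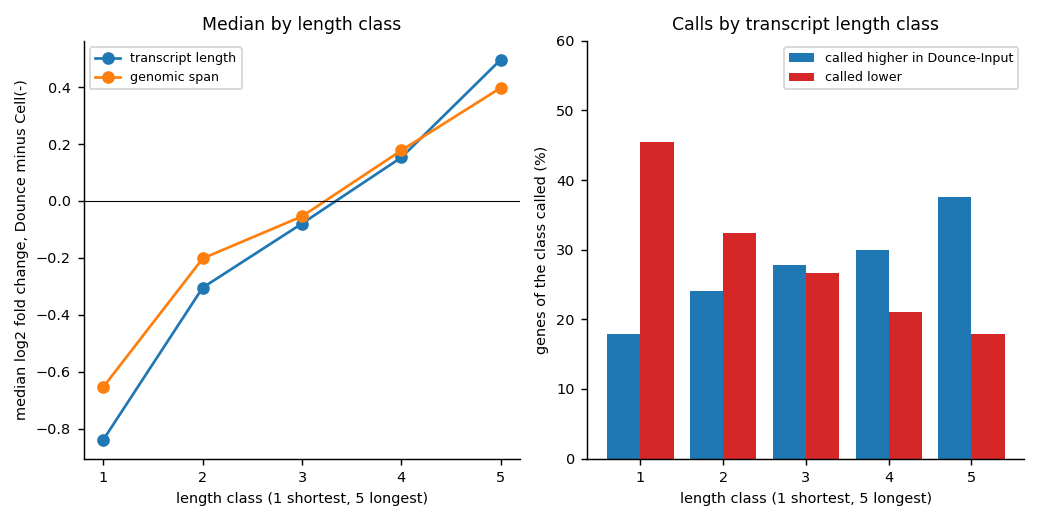
Left, median log2 fold change, Dounce-Input minus Cell(-)Inhib-Input (y axis), in 5 classes from shortest to longest (x axis) by transcript length and by genomic span; right, the percentage of genes called higher and lower in each transcript length class. The median rises with each class of either measure, from -0.84 to 0.50 for transcript length.

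Metabolic genes were divided. Glycolytic genes were lower in 12 of 20 and higher in 3 (median -1.60). Slc2a1, the glucose transporter of barrier endothelium and astrocytes, was at 56.2, 54.0, 53.3, and 61.7 CPM in Dounce-Input and 1012, 843, 838, and 705 CPM in Cell(-)Inhib-Input (-3.92 ± 0.16), whereas Slc2a3, that of neurons, was at 151, 168, 178, and 148 CPM against 25.9, 17.1, 16.9, and 22.9 CPM (2.96 ± 0.15). Enolase showed the same division, with Eno1 lower (-2.07 ± 0.16) and the neuronal Eno2 higher (1.79 ± 0.19), and Pgk1 (-2.67 ± 0.16) was lower and Pfkp (1.47 ± 0.16) higher. Cholesterol synthesis enzymes were lower in 7 of 20 and higher in none (median -0.81), where 28.1% of all genes were called lower. Idi1 (-1.60), Sqle (-1.50), and Hmgcs1 (-1.44) were among those lower. Histone genes were lower in 20 of 31 and higher in 3 (median -1.62). Hist2h2aa1 (-4.74 ± 0.28) and Hist1h4h (-3.72 ± 0.51) fell, and Hist1h4j was at least 1.72-fold lower. Hist4h4 (4.16 ± 0.29), H2afy (1.42 ± 0.11), and H2afy2 (1.35 ± 0.19) rose. Histone copies are near-identical and can share reads.

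Among protein-coding genes with at least 20 CPM in the higher preparation and no overlap between groups, those with the largest falls were Krt18 (at least 113-fold lower), Krt8 (at least 54.4-fold), Tmem212 (at least 66.0-fold), 1110059M19Rik (at least 82.5-fold), Gm11992 (at least 48.7-fold), Folr1 (log2 fold change -7.52, with all of its 16 Dounce counts in replicate 2), 1700009P17Rik (-7.32), Calml4 (-7.20), Ccl4, Cldn2 (-6.92), Alb (-6.85), and Flt1. Krt8 and Krt18 encode the keratin pair of simple epithelia, and Folr1, Calml4, and Cldn2 were on the choroid plexus list. Krt18 was at 0, 0.205, 0.384, and 0 CPM in Dounce-Input and at 32.5, 50.5, 67.9, and 42.0 CPM in Cell(-)Inhib-Input.

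By the same rule, with gene types as the authors deposited them, the largest rises were of 4930447C04Rik (at least 114-fold higher), Thpo (at least 86.9-fold), Lin28b (at least 77.9-fold), Slc7a13 (log2 fold change 8.15), 4932411N23Rik (7.62), Snhg11 (7.53), which the authors' annotation types as protein-coding, Hoxb1 (7.51), Trank1 (7.49), Gm5415 (6.98), Tnfsf15 (6.82), Fcrl6 (6.77), and Slc39a2 (6.72). Trank1 was abundant, at 1513, 2153, 1516, and 1707 CPM in Dounce-Input and 8.80, 5.26, 11, and 13.3 CPM in Cell(-)Inhib-Input, with 280 CPM in Tissue-Input. Hoxb1, a hindbrain patterning gene of the embryo, was at 72.1, 48.2, 101, and 126 CPM against 0.419, 0.292, 0.895, and 0.286 CPM, and Tissue-Input held 0.416 CPM. Slc7a13 and Tnfsf15, at means of 0.139 and 0.352 CPM in Tissue-Input, were likewise seen almost solely in Dounce-Input among the 4 preparations. In all, 151 genes, 107 of them protein-coding, had more than 5 counts in every Dounce-Input library and at most 3 in every Cell(-)Inhib-Input library, and 155, of which 145 protein-coding, had the reverse.

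Principal components placed the preparations apart. On component 1, with 62% of the variance of the 16 Input libraries, Dounce-Input scored 94.7 to 116 and Cell(-)Inhib-Input -94.6 to -81.2, with Tissue-Input at 64.0 to 68.5. Component 2, with 29%, separated Dounce-Input (65.5 to 79.4) from Tissue-Input (-92.8 to -91.7), and Cell(-)Inhib-Input was between them (6.93 to 12.0). The replicates of each preparation lay close together next to these distances.

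**Figure D5:**
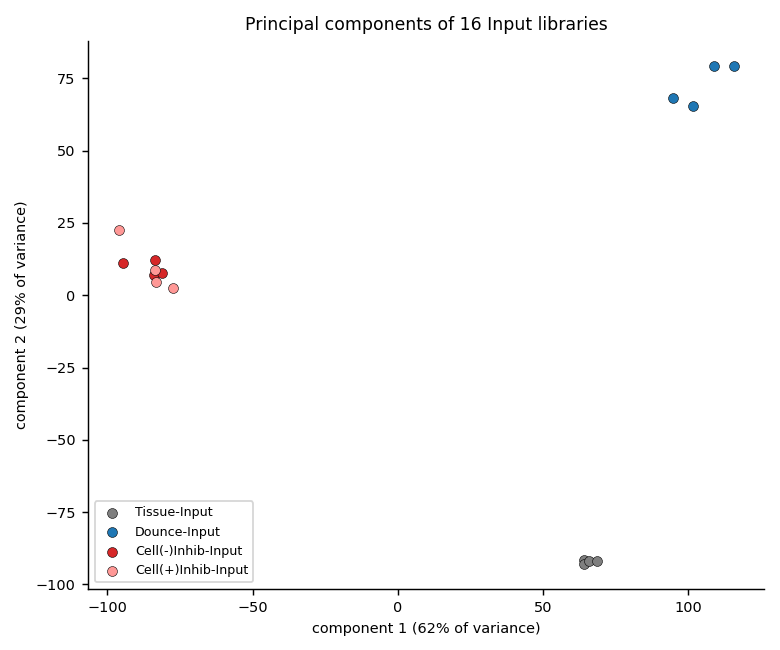
Scores of the 16 Input libraries on component 1 (x axis) and component 2 (y axis) from log2(CPM + 1), coloured by preparation, with 1 point per library. Dounce-Input lies alone at upper right, between 94.7 and 116 on component 1, and the cell suspensions with and without inhibitors lie together at left.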

How the data were processed

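Brain RNA of the Input fraction was measured by stranded poly(A) RNA-Seq in 16 libraries of 4 preparations, 4 mice each, and groups came from the sample labels. The expected counts were made by the authors in Strand NGS, with reads trimmed, aligned to mm10 with regard to strand, cleared of duplicates, and counted per gene, and only 20.8% of the deposited values are whole. The deposited log2 values are those counts after DESeq2 scaling by the authors, set to 0 at the median of Tissue-Input for each gene. The authors list only genes with more than 5 counts in every library of at least 1 group, 16000 here, and 23 symbols that a spreadsheet had turned into dates were restored by identifier.

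Counts were rounded, genes with more than 5 counts in every library of at least 1 Input group kept (15753), and all 16 libraries fitted by group with TMM scaling in edgeR 4.0.16 (R 4.3.3) and its quasi-likelihood test, taking Dounce-Input minus Cell(-)Inhib-Input. Standard errors are the log2 fold change over the square root of F. In simulated counts for 15753 genes of this comparison, 197 of 200 changed genes were recovered with 2 false calls. All other genes were left unchanged there and all had the same dispersion, whereas 56.8% of genes were called in the data. The simulation therefore does not give the error rate of these calls. DESeq2 1.42.0 and limma 3.58.1 gave alternatives. Genes at 3 counts or fewer in every library of a group got a bound against 3 counts per library in place of a fold change, and at these depths low genes carry counting error beyond the replicate spread. Transcript length was that of the longest GENCODE transcript of each gene. Marker lists were those of the study, the other lists came from textbook knowledge, and members and lists were chosen with earlier results of these data known. Genes were named if on a set of anchor genes, among the 3 largest called rises or falls of a list, or among the 12 largest of each direction in protein-coding genes with at least 20 CPM in the higher group and no overlap, and others are marked as named after their values were seen. Acta2, Drd1, and Hbb-bs were not used here, and some other genes that this rule names are not reported here. Dounce-Input and Cell(-)Inhib-Input samples are separate mice. Cell(-)Inhib-Input and Cell(+)Inhib-Input samples came from the same mice, and the fit by group took no account of this.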

Additional observations from a re-analysis of the deposited data

Results flagged for a closer look

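A library was noted where its gap to the nearest of the other 3 of its group exceeded the 95% limit of Dixon's test for 4 values. Chance gives about 1 in 20 groups, and 31 of 595 were noted (5.2%).

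Dounce-Input replicate 3 was low for Csf1r (293 CPM, the others 555 to 600), Aqp4 (32.6 CPM, the others 105 to 113), and Slc6a3 (2.30 CPM), and high for the neutrophil gene Camp (143 CPM, the others 12.3 to 28.6) and for Eno2 (278 CPM). Dounce-Input replicate 2 was high in the summed level of glucocorticoid and clock genes (1784 CPM, the others 1558 to 1592).

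Cell(-)Inhib-Input replicate 4 was high for Egr1 (1349 CPM, the others 735 to 822), Gfap (503 CPM, the others 167 to 196), Vcan (30.7 CPM), and C1ql1 (6.68 CPM). Cell(-)Inhib-Input replicate 1 was high for Alb (72.6 CPM), Dnajc3 (239 CPM), Lef1 (50.0 CPM), Ltf (21.4 CPM), Lhfpl3 (13 CPM), and Slc6a3 (0.734 CPM), low for Mdm2 (57.2 CPM), and at 0 for Thpo. Cell(-)Inhib-Input replicate 3 was high for Cox8b (21.5 CPM) and for the sum of striatal genes (698 CPM), and low for Mdga1 (10.3 CPM).

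In the other groups noted, the gene was above 0 in 1 library alone. These were Tnf (0.413 CPM) and 1110059M19Rik (0.207 CPM) in Dounce-Input replicate 1, Folr1 (1.64 CPM) and Gstm2, Shroom4, Higd1b, and Krt8 (0.205 CPM each) in replicate 2, Ccl2 (1.02 CPM) and Dynlrb2 (0.342 CPM) in replicate 4, and 4930447C04Rik (0.0974 CPM) in Cell(-)Inhib-Input replicate 2.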

How the results depend on the processing

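Calls were recomputed under 8 other settings, 1 of them, the use of only the 2 deeper Dounce libraries, chosen after seeing the data, and without each of the 8 libraries in turn. Genes called higher numbered 4330 to 4577 and genes called lower 4096 to 4783, except with at least 10 counts in every library, where 12062 genes could be tested and 3000 were higher and 3216 lower. Leaving out 1 library gave 4475 to 4568 higher and 4271 to 4565 lower. No paired analysis was possible because the mice of the groups differ and a replicate number only names a library.

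With at least 10 counts in every library, list medians moved by more than the spread between replicates to -2.13 for endothelial markers, -2.01 for cytokines, -1.66 for the integrated stress response, -0.84 for endoplasmic reticulum chaperones, 0.29 for p53 targets, -1.15 for border-associated macrophage genes, 0.59 for blood cell genes, -4.04 for endothelial genes, -0.82 for mural cell genes, -3.17 for fibroblast genes, -4.52 for choroid plexus genes, 1.44 for striatal genes, 0.19 for diencephalic genes, 1.80 for presynaptic genes, 4.55 for nuclear long noncoding RNAs, and -1.01 for histones. That setting drops members near 0 in any library, and calls went with them, to none of 3 for blood cell genes, 5 lower of 8 for cytokines, 3 lower of 7 for mural cell genes, and 4 higher and 4 lower of 11 for diencephalic genes. With only the 8 libraries the integrated stress response was at -1.49. With limma on the authors' log2 values, chaperones were at -0.86, oxidative phosphorylation subunits at -1.64, and histones at -1.93. With only the 2 deeper Dounce libraries, chaperones were at -0.65 and glycolytic genes at -1.35. By genomic span, the 2 shortest classes had medians of -0.65 and -0.20. The causes of these shifts were not tested.

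Without 1 library, medians ranged from -1.51 to -1.19 for the integrated stress response, -0.81 to -0.69 for chaperones, 1.29 to 1.74 for excitatory genes, 2.25 to 2.84 for granule cell genes, -1.89 to -1.55 for histones, and -0.36 to 0.36 for Purkinje cell genes, where it turned sign without Cell(-)Inhib-Input replicate 3. Of 237 named genes with a fitted fold change, 218 kept their direction and their side of the limits in each setting that tested them.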
